A study of Oryctolagus cuniculus with 8 samples.

Results

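The cholesterol genes examined were HMGCS1, SQLE, FDFT1, IDI1, CYP51A1, DHCR7 and INSIG1, all targets of the transcription factor SREBP2, and were taken from the table by name. Of these 7 genes, 5 had a row in the table of 25666 genes and all 5 passed the filter on low values, so they stand among 12204 tested protein-coding genes. IDI1 and DHCR7 were not analysed here, since no row bore either name. The set covers synthesis and its feedback control, and genes of cholesterol uptake and transfer are given from a wider list.

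The retinas came from wild-type male Chinchilla rabbits of about 10 months, with 2 retinas for each of 4 diets fed for 6 months. ND rabbits ate standard chow. The HFD added 10% lard and 0.5% cholesterol to it, the HSD added 40% sucrose, and the HFSD added the same amounts of lard and cholesterol with 35% sucrose. The comparison set the 4 retinas with dietary cholesterol (HFD and HFSD) against the 4 without (ND and HSD). Cholesterol was always fed together with lard, so that the effects of these fats cannot be told apart. Neither the labels nor the methods say whether the retinas of a diet came from different rabbits, and p values therefore measure the spread between retinas only.

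Cells make cholesterol from acetyl-CoA by way of mevalonate, squalene and lanosterol. When sterol in the membrane of the endoplasmic reticulum is low, the escort protein SCAP carries SREBP2 to the Golgi, where proteases release its active part, and transcription of the synthesis enzymes goes up. When sterol is plentiful, INSIG proteins hold SCAP back. The retina both makes cholesterol itself and takes up lipoprotein cholesterol through the pigment epithelium, and Müller glia and the pigment epithelium are known sites of this traffic.

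Values are FPKM, in which a gene's fragments are divided by its length and by library depth, so levels of different genes can be compared per length. The depths recovered from the steps of the values ran from 15764577 to 22785832 fragments. Rod markers (6 of 8 listed were found) summed to between 28580 and 40440 FPKM in the 8 libraries. Pigment epithelium markers were also present in every retina, at a summed 108 to 443 FPKM. A large part of that sum was 1 gene, RGR, with a mean of 142.4 FPKM over the 8 retinas. HSD replicate 2 stood apart, with 5 skeletal muscle markers at a summed 398.8 FPKM against 0.224 to 0.848 FPKM in the other 7 retinas. Without that library the median change of the cholesterol genes between the groups with and without dietary cholesterol was -0.046 on the log2 scale, against 0.010 with it.

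HMGCS1, the cytosolic synthase that makes HMG-CoA for the mevalonate pathway, was the most abundant of the 5 genes, with a mean of 47.0 FPKM over the 8 retinas. CYP51A1, the lanosterol demethylase, followed at 42.0 FPKM and INSIG1, the feedback protein, at 33.6 FPKM. FDFT1, the squalene synthase, was at 25.7 FPKM, and SQLE, the squalene epoxidase, was lowest at 14.5 FPKM. Between 419 and 2800 fragments lay behind each of these values, so that counting error was small. For HMGCS1, the highest retina had 1.97 times the level of the lowest, and for the other 4 genes this range was between 1.37 and 1.57 times.

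HMGCS1 stood at 60.2 and 31.0 FPKM in ND, 47.2 and 46.9 in HSD, 37.6 and 41.1 in HFD, and 51.4 and 60.9 in HFSD (replicate 1 first here and below). The ND retinas enclosed all but 1 of the other 6 values. SQLE was at 17.1 and 11.2 FPKM in ND, 16.3 and 13.0 in HSD, 13.5 and 12.0 in HFD, and 15.8 and 17.2 in HFSD, again with the ND retinas near both ends of the range. FDFT1 was at 30.7 and 20.1 FPKM in ND, 27.9 and 23.9 in HSD, 26.1 and 21.9 in HFD, and 25.8 and 28.9 in HFSD. Its ND retinas were the highest and the lowest of all 8. CYP51A1 was at 50.6 and 40.7 FPKM in ND, 44.1 and 36.8 in HSD, 44.9 and 37.5 in HFD, and 36.8 and 44.7 in HFSD. Each of the 4 diets held a retina above 44 FPKM and a retina below 41 FPKM. INSIG1 was at 40.8 and 34.0 FPKM in ND, 31.4 and 28.7 in HSD, 35.0 and 38.2 in HFD, and 26.1 and 34.5 in HFSD. For INSIG1 the diets without sucrose held the 3 highest retinas. The groups with and without cholesterol overlapped for all 5 genes.

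**Figure D1:**
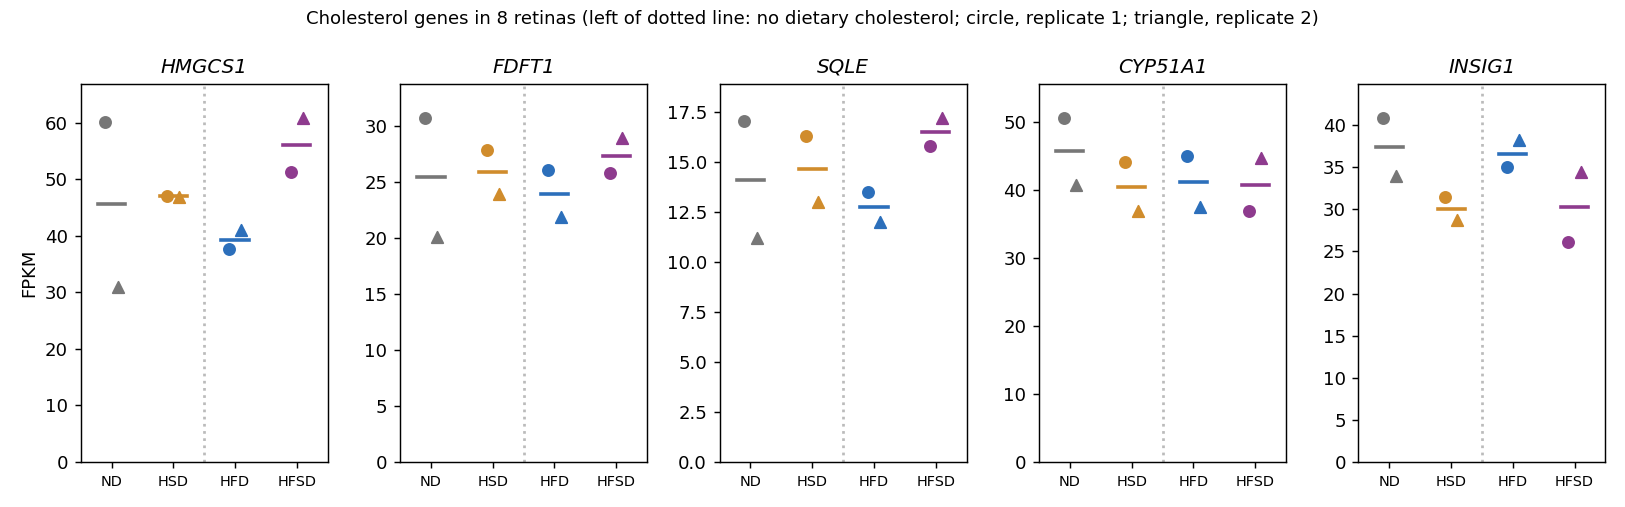
FPKM of the 5 cholesterol genes in each of 8 retinas by diet, with replicate 1 as a circle, replicate 2 as a triangle and the mean of the diet as a bar. The ND retinas lie far apart for HMGCS1 (60.2 and 31.0 FPKM), and the diets left and right of the dotted line overlap for every gene.

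Dietary cholesterol was set against none in a single limma model of all 8 retinas on log2(FPKM + 1), and 0 of the 5 genes had an adjusted p under 0.05, against 0.00819% of all genes tested (1 gene, without a symbol). The same count was 0 with voom on recovered fragments, and at an unadjusted p under 0.05 it was also 0. Over all genes, 1.2% passed that looser limit in the higher direction and 2% in the lower. The groups were apart for 0 of 5 genes, while among all genes 0.68% had the 4 retinas with cholesterol all above the others and 0.664% all below. In bulk RNA, fewer cells of a type and less RNA per cell cannot be told apart.

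The mean of HMGCS1 was 47.7±10.5 FPKM with cholesterol and 46.3±12.0 FPKM without (s.d., n=4 in each group). Its log2 difference was 0.056 (standard error 0.191), and the 95% interval of the ratio ran from 0.763 to 1.42. For SQLE the difference was 0.028 (interval of the ratio 0.808 to 1.29) and for FDFT1 0.010 (0.798 to 1.27). CYP51A1 differed by -0.066 (0.787 to 1.16) and INSIG1 by -0.014 (0.824 to 1.19). The lowest unadjusted p of the 5 was 0.595 from limma, and the adjusted p was 0.9996 for each with Benjamini-Hochberg adjustment. The median difference of the 5 genes was 0.010 beside 0.0072 over all genes tested. Its sign rested on the ND retinas, with 0.158 without ND replicate 1 and -0.137 without ND replicate 2.

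The same question was asked on each background of sucrose. On chow without sucrose (HFD against ND), all 5 genes had a lower mean in HFD, with differences between -0.14 and -0.026 and a median of -0.11 on the log2 scale, beside 0.0063 over all genes. A lower mean in HFD was found for 48.8% of all genes. On chow with sucrose (HFSD against HSD), 4 of 5 were higher, with differences between -0.0018 and 0.25 and a median of 0.078, beside 0.0083 over all genes, of which 47.6% were lower. In both comparisons 0 of the 5 genes were called by limma or passed an unadjusted p of 0.05, where the adjusted test called 0.00819% and 0% of all genes. In HFD against ND, 2.51% of all genes passed the unadjusted limit with a lower mean in HFD, and in HFSD against HSD 1.22% did with a higher and 1.52% with a lower mean in HFSD. The direction in HFD rested on ND replicate 1: without it the median was 0.17, and without ND replicate 2 it was -0.35. The direction in HFSD rested on HSD replicate 2 and HFSD replicate 2, without which the median was -0.029 and -0.0014, while without HSD replicate 1 it was 0.185 and without HFSD replicate 1 0.192. Some marker sums were apart between the same retinas. In HFD against ND these were the pigment epithelium (226.4 and 262.0 against 437.4 and 442.9 FPKM), the endothelium (146.2 and 137.3 against 111.3 and 127.3 FPKM) and skeletal muscle, which was under 1 FPKM in all 4, and in HFSD against HSD it was myelin (61.0 and 154.0 against 58.6 and 45.4 FPKM). Their part was not tested. The interaction of fat and sucrose was above 0 for all 5 genes, from 0.025 for INSIG1 to 0.38 for HMGCS1, but its 95% interval for HMGCS1 ran from -0.51 to 1.27 (limma, Benjamini-Hochberg adjusted p=0.999). It called 0 of the 5 genes and 0.00819% of all genes, and without ND replicate 1 the median interaction of the 5 genes was -0.088. Over all genes the median interaction was 0.011, with 48.1% below 0.

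**Figure D2:**
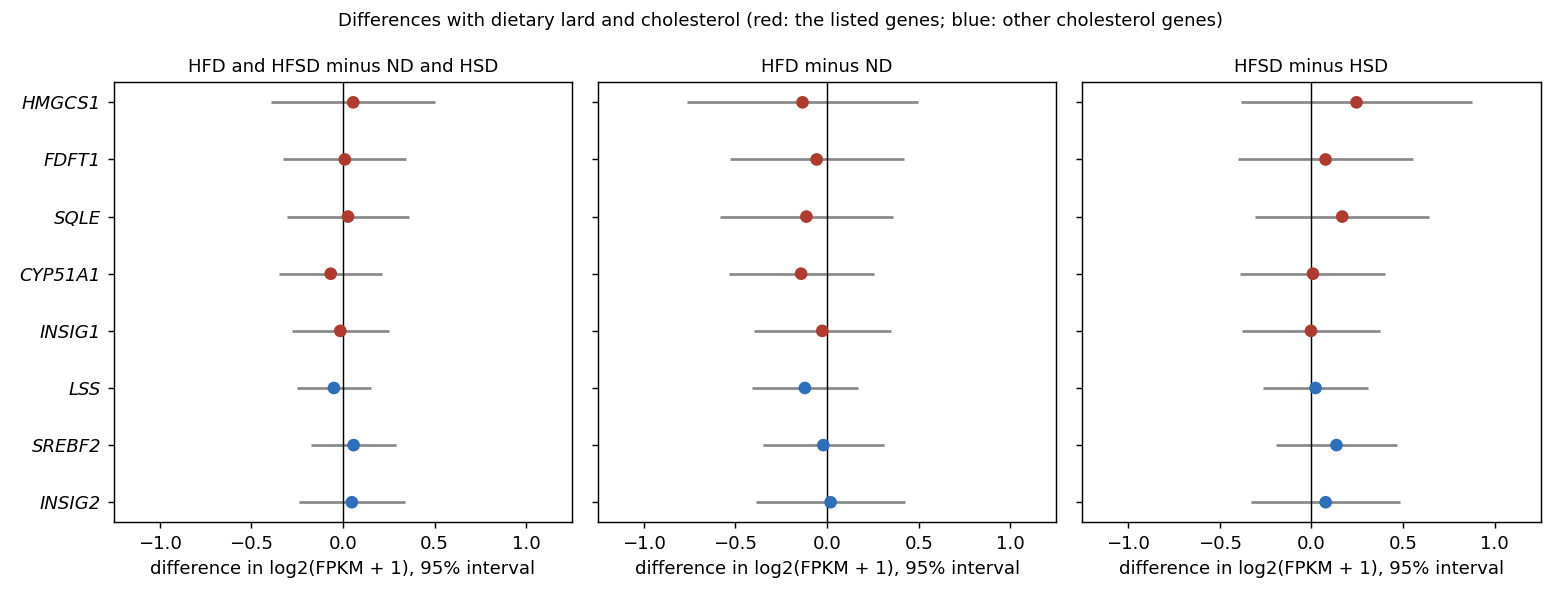
Differences in log2(FPKM + 1) with 95% intervals from limma for the 5 genes (red) and 3 other cholesterol genes (blue), for the 4 retinas with cholesterol minus the 4 without, HFD minus ND, and HFSD minus HSD. The intervals of all the genes drawn include 0 in all 3 panels.

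Ordered by diet, HMGCS1 was lowest in HFD (39.4±2.46 FPKM) and highest in HFSD (56.1±6.69 FPKM), with ND at 45.6±20.7 and HSD at 47.0±0.213 FPKM between them (s.d., n=2 in each). SQLE had the same order, from 12.7±1.08 FPKM in HFD to 16.5±0.975 FPKM in HFSD (s.d., n=2), and so did FDFT1, from 24.0±2.96 to 27.4±2.20 FPKM. For CYP51A1 the diets lay between 40.4 and 45.6 FPKM, within the spread of their retinas. HFD and HFSD share the lard and cholesterol and differ in sucrose, and this pair was looked at because of that order. Both HFSD retinas were above both HFD retinas for HMGCS1 and SQLE, an order that 24.9% of all genes had. Cell markers separated the same 4 retinas, with sums in HFSD and HFD of 2561 and 2660 against 4103 and 3773 FPKM for Müller glia, 163.3 and 107.6 against 226.4 and 262.0 FPKM for the pigment epithelium, and 61.0 and 154.0 against 467.4 and 340.7 FPKM for myelin. The endothelial sums (131.4 and 99.8 against 146.2 and 137.3 FPKM) and the microglial sums (7.06 and 10.6 against 15.8 and 11.9 FPKM) were apart as well. The endothelial sum was mostly KDR, and the part of these cells was not tested. The log2 difference was 0.50 for HMGCS1 (95% interval -0.13 to 1.13) and 0.35 for SQLE (-0.12 to 0.82), and the Benjamini-Hochberg adjusted p values of limma were 0.416 and 0.436. The adjusted test called 0 of the 5 genes, against 0.00819% of all genes, and 0 of the 5 passed an unadjusted p of 0.05, against 7.96% of all genes with a higher mean in HFSD.

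Split by sucrose, INSIG1 had the lowest p of the 5 genes. Its level was 34.0 to 40.8 FPKM in the 4 retinas without sucrose and 26.1 to 34.5 FPKM in the 4 with it, and a single pair of retinas, ND replicate 2 and HFSD replicate 2, crossed over. The difference with sucrose was -0.29 on the log2 scale (standard error 0.113, limma, unadjusted p=0.0357 and Benjamini-Hochberg adjusted p=0.242), so INSIG1 was not called. An unadjusted p under 0.05 with a lower mean under sucrose was found for 9.16% of all genes in this comparison, and the adjusted test called 0.344%. CYP51A1 was also lower with sucrose, by a log2 difference of -0.092, and HMGCS1, SQLE and FDFT1 were higher by 0.31, 0.21 and 0.12, none of these 4 with an unadjusted p under 0.05. The median of the 5 genes, 0.12, rested on the ND retinas, since it was -0.027 without ND replicate 2 and 0.267 without ND replicate 1. Markers of other cells followed the same split: the 8 markers of Müller glia summed to 2561 to 2726 FPKM in the 4 retinas with sucrose and 3482 to 4705 FPKM in the 4 without, and the 8 pigment epithelium markers to 107.6 to 194.9 and 226.4 to 442.9 FPKM. Their part in the values of INSIG1 was not tested.

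The wider list held 32 other cholesterol genes, of which 27 had a row and all 27 were tested. MVD was not among those with a row. In the comparison of cholesterol with none, 15 of the 27 were higher and 12 lower, with a median of 0.0084, beside 0.0072 for all genes, of which 47.4% were lower. Limma called 0 of them, 0 passed an unadjusted p of 0.05, and 0 had groups that did not overlap. By role, the medians were 0.0072 for the 11 genes of synthesis, 0.0295 for the 6 regulators and 0.0045 for the 10 genes of uptake, transfer and storage. The differences reached from -0.18 for LRP1, an endocytic receptor, to 0.092 for NPC2, which moves cholesterol out of lysosomes.

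Among the enzymes of that list, LSS, the lanosterol synthase, was at 17.4 and 16.6 FPKM in ND, 17.2 and 14.3 in HSD, 15.1 and 16.0 in HFD, and 16.4 and 15.6 in HFSD, and differed by -0.049 with cholesterol. Its whole range, a ratio of 1.21, was narrower than that of any of the 5 genes.

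Among the regulators, SREBF2, the gene of SREBP2 itself, was at 48.2 and 37.0 FPKM in ND, 45.6 and 41.5 in HSD, 42.9 and 40.4 in HFD, and 46.7 and 49.2 in HFSD, a difference of 0.058 with cholesterol. INSIG2, the second INSIG protein, was at 29.6 and 28.2 FPKM in ND, 40.0 and 27.7 in HSD, 27.6 and 31.1 in HFD, and 33.4 and 37.2 in HFSD, and differed by 0.049. For both genes the retinas with and without cholesterol were interleaved.

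For uptake, SCARB1, the receptor for HDL, was abundant at 72.2 to 92.9 FPKM and differed by -0.024 with cholesterol. LRP1 was at 19.9 and 19.6 FPKM in ND, 18.1 and 16.4 in HSD, 11.6 and 19.9 in HFD, and 18.1 and 16.4 in HFSD, so that HFD replicate 1 alone lay far below the others. NPC2 was at 59.0 and 96.2 FPKM in ND, 38.4 and 42.2 in HSD, 97.0 and 72.7 in HFD, and 40.1 and 42.1 in HFSD. All 4 retinas with sucrose were below all 4 without, as for 6.48% of all genes, with a difference of -0.95 (limma, Benjamini-Hochberg adjusted p=0.0775), short of a call. The sums of the Müller glia and pigment epithelium markers were lower in the same 4 retinas, and their part in this difference was not tested. With CYP46A1, which oxidizes cholesterol in neurons (-0.27), it made up the 2 genes of the 27 with an unadjusted p under 0.05 in the split by sucrose, both lower with it, a count no higher than the 9.16% of all genes.

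The 2 retinas of a diet differed from each other in the same direction for most of these genes. Of the ND retinas, replicate 1 was higher for all 5 genes, by 1.94 times for HMGCS1, 1.53 for FDFT1, 1.52 for SQLE, 1.24 for CYP51A1 and 1.20 for INSIG1. Of all genes, 48.4% were higher in that retina. The 95% counting intervals of HMGCS1 in these retinas, 58.0 to 62.5 and 29.3 to 32.7 FPKM, were far apart, and these cover counting error only. Among the 7285 genes with a mean of at least 10 FPKM, 1.99% differed as much between the ND retinas as HMGCS1 did, 6.63% as much as FDFT1 and 7.25% as much as SQLE. For CYP51A1 this share was 24.5% and for INSIG1 31.4%.

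In HSD, replicate 1 was higher for all 5 genes (51.4% of all genes), though HMGCS1 differed by a ratio of 1.01 only. The counting intervals of INSIG1 overlapped there (28.5 to 34.6 and 26.0 to 31.6 FPKM). Among genes of at least 10 FPKM, from 14.1% (SQLE) to 95.9% (HMGCS1) differed as much between the HSD retinas. In HFSD, replicate 2 was higher for all 5 genes, while 49.0% of all genes were higher in replicate 1. The counting intervals of SQLE overlapped (14.9 to 16.8 and 16.0 to 18.4 FPKM). From 6.88% (INSIG1) to 48.9% (SQLE) of genes of at least 10 FPKM differed as much between the HFSD retinas. The HFD retinas were split, with FDFT1, SQLE and CYP51A1 higher in replicate 1 and HMGCS1 and INSIG1 in replicate 2. Of 11 other synthesis genes, 10 were higher in ND replicate 1, 9 in HSD replicate 1, 9 in HFD replicate 1 and 8 in HFSD replicate 2. These counts were the same after scaling the libraries by median ratios.

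**Figure D3:**
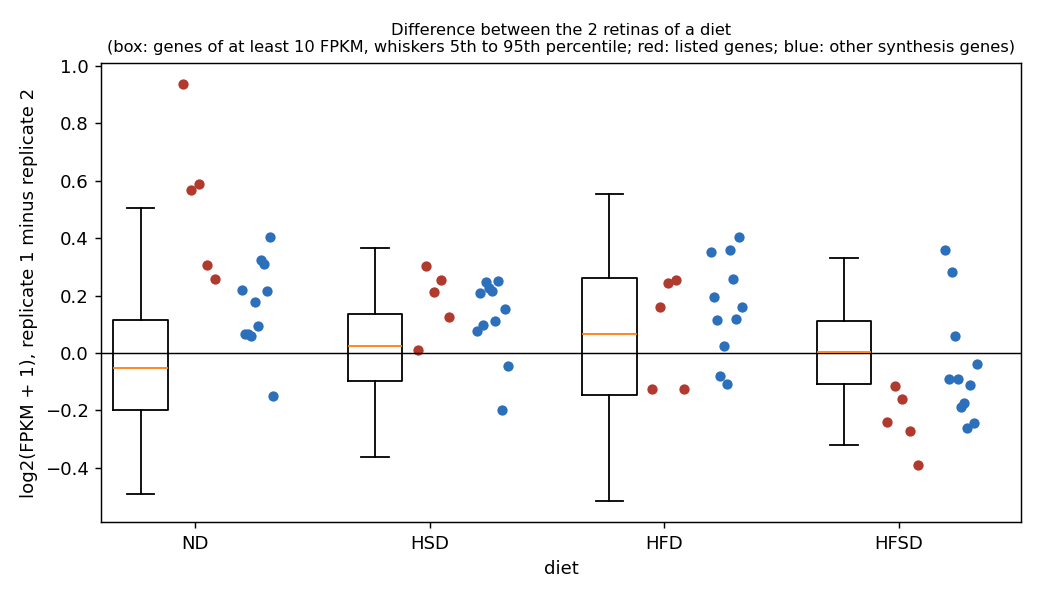
Difference in log2(FPKM + 1) between replicate 1 and replicate 2 of each diet, for the 5 cholesterol genes (red), 11 other synthesis genes (blue) and all genes of at least 10 FPKM (box, with whiskers from the 5th to the 95th percentile). In ND all 5 red points lie above 0, up to 0.94 for HMGCS1, and in HFSD all 5 lie below 0.

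Across the 8 retinas, HMGCS1, SQLE and FDFT1 followed each other. SQLE and FDFT1 had a Pearson correlation of 0.95 (Spearman 0.95), HMGCS1 and SQLE of 0.89 (0.90), and HMGCS1 and FDFT1 of 0.84 (0.79). CYP51A1 was less close, from 0.34 with HMGCS1 to 0.69 with FDFT1. INSIG1 was near 0 with HMGCS1 (0.002) and SQLE (-0.045) and at 0.64 with CYP51A1. Without the ND retinas (n=6), SQLE and FDFT1 stayed at 0.92, while HMGCS1 and FDFT1 were at 0.58 and HMGCS1 and CYP51A1 at 0.056. These correlations rest on 8 retinas that share libraries, depth and diets between the genes, and are given as description.

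A mean of the 5 genes, each scaled to z scores over the 8 retinas, was 1.32 in ND replicate 1 and 0.805 in HFSD replicate 2 at the upper end, and -0.979 in ND replicate 2 at the lower. SC5D, a sterol desaturase, followed it with a correlation of 0.859, SREBF2 with 0.857, MSMO1, a sterol methyl oxidase, with 0.847 and NSDHL, a sterol dehydrogenase, with 0.814. Without the ND retinas these were between 0.754 and 0.810. Above 0.8 were 3 of the 11 other synthesis genes (27.3%), 0 of the 10 genes of uptake, transfer and storage and 1.24% of all genes. The median of those 11 was 0.383, and ERG28 (-0.228) and GGPS1 (-0.200) were below 0. Set against the mean of the other 4, FDFT1 was at 0.883, SQLE at 0.767, CYP51A1 at 0.717, HMGCS1 at 0.661 and INSIG1 at 0.206. Without the ND retinas FDFT1 was at 0.811, CYP51A1 at 0.700, SQLE at 0.634, HMGCS1 at 0.332 and INSIG1 at -0.121. LSS was at 0.383. SCARB1 ran the opposite way at -0.851, with its highest value, 92.9 FPKM, in ND replicate 2 and its lowest, 72.2 FPKM, in HFSD replicate 2.

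**Figure D4:**
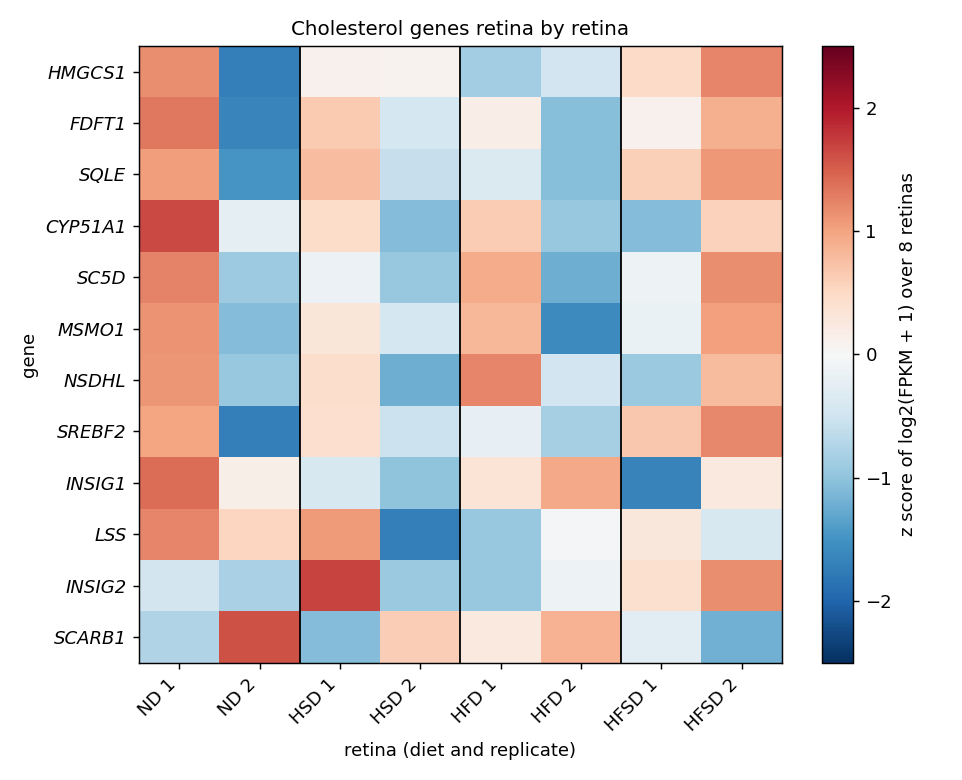
Z scores of log2(FPKM + 1) over 8 retinas for the 5 cholesterol genes and 7 other genes of the wider list, with retinas grouped by diet. SC5D, MSMO1, NSDHL and SCARB1 were picked after their values were seen, so their patterns follow from that choice. ND replicate 1 and HFSD replicate 2 are red for most enzymes and SREBF2, ND replicate 2 and HFD replicate 2 are blue for most, and SCARB1 shows the reverse.

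Outside the cholesterol lists, the 8 genes with a symbol most like this mean were ADRA1B (0.953), RBPMS2 (0.927), PRKAR2B (0.914), LEO1 (0.913), LRRN1 (0.913), EGLN3 (0.909), LRRC55 (0.900) and FYN (0.898), over the 8 retinas. ADRA1B, an adrenergic receptor, was at 3.18 FPKM in ND replicate 1 and 1.51 in ND replicate 2. RBPMS2, an RNA-binding protein found in ganglion cells, was at 10.3 and 5.64 FPKM in the same retinas.

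Markers of cell types varied between the same retinas. The 6 myelin markers, genes of the oligodendrocytes that wrap the axons of the rabbit retina, summed to 698.7 FPKM in ND replicate 1 and 95.7 in ND replicate 2, to 58.6 and 45.4 in HSD, 467.4 and 340.7 in HFD, and 61.0 and 154.0 in HFSD, with MOBP listed at 0 in 3 retinas. In ND, HSD and HFSD the retina with more myelin RNA was the retina with the higher level of all 5 cholesterol genes, and over the 8 retinas the correlation of the myelin sum with their mean was 0.486. In HFD, the retina with more myelin RNA also had the higher mean score (-0.019 against -0.522), although 2 of the 5 genes were lower in it. The microglial sums were likewise higher in the retina with the higher score in all 4 diets, at 14.9 against 9.78 FPKM in ND, 8.08 against 7.98 in HSD, 15.8 against 11.9 in HFD and 10.6 against 7.06 in HFSD. The correlation of the Müller glia sum with the mean of the 5 genes was -0.280. For the rod markers the correlation was -0.197, for the 8 pigment epithelium markers -0.014, for the 6 endothelial markers -0.437, for the 5 muscle markers -0.358 and for the 6 microglial markers 0.423. The endothelial sums were 99.8 to 146.2 FPKM and the microglial sums 7.06 to 15.8 FPKM, and PECAM1, CDH5 and VWF were listed at 0 in some retinas. KDR alone, with a mean of 112.9 FPKM, made up most of the endothelial sum. For all 7 lists the retinas with and without dietary cholesterol overlapped, while by sucrose the Müller glia and pigment epithelium sums did not. The part of any of these cells in the differences between retinas was not tested.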

How the data were processed

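RNA of 8 rabbit retinas was sequenced on a HiSeq 2500. The authors trimmed the reads, mapped them with TopHat2, dropped reads with several mapping places and deposited FPKM per gene and library. Build, annotation and tool versions are not given in the sources used here, so no coordinates are printed. The deposited file name speaks of counts, but its columns hold FPKM. The number of value columns left without a sample was 0. Whole fragments were recovered from the steps of the FPKM values (within 0.02 of a whole number for 100% of the 12204 tested genes).

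Protein-coding genes that reached 1 FPKM in 2 or more libraries entered limma 3.58.1 (R 4.3.3) on log2(FPKM + 1), with 4 diet means, a mean-variance trend and Benjamini-Hochberg adjustment over all of them. On this scale a fold change understates the change of low genes. The limma and recovery steps were tested on simulated data. The alternatives were a pseudocount of 0.1, no filter, median-ratio scaling, a fit of 2 groups, a replicate block, no trend, voom and each library left out.

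The genes, lists and comparisons were chosen with earlier results of these data known. Some genes of the wider list are not reported here and were left out of its counts. Named were the 5 genes with a row, LSS, MVD, SREBF2 and INSIG2, list genes passing a limit with dietary cholesterol (none did), and the 8 most similar other genes. Other list genes were named after their values were seen, and HFSD was compared with HFD for the same reason. A planned motif search in promoters was not run, since no sequences were used here.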

Additional observations from a re-analysis of the deposited data

Results flagged for a closer look

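Among 16 sets of 4 retinas (8 cholesterol genes, with and without dietary cholesterol), a single retina stood apart in 1 set. INSIG2 was at 40.0 FPKM in HSD replicate 1, against 27.7 to 29.6 FPKM in the other 3 retinas without dietary cholesterol, a gap of 0.847 of the whole range. Chance alone gives such a gap in about 1 of 20 sets drawn from a single population, so that 1 of 16 sets is no excess. Each set joined retinas of different diets, and this rate is therefore only a rough guide.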

How the results depend on the processing

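The 5 cholesterol genes gave 0 calls with dietary cholesterol under each of the 15 alternatives. Their median log2 difference of 0.0105 became 0.00345 with voom and ran from -0.137 (without ND replicate 2) to 0.158 (without ND replicate 1). Same-numbered retinas did not deviate together (correlations from -0.165 to 0.081), so the numbers were not taken as pairs. In this balanced design the replicate block cannot move an estimate (the median was 0.0105 by construction) and changes only the errors.

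Leaving out each library in turn changed the sign of each of 8 single genes, none of them called: HMGCS1 from -0.178 to 0.291, SQLE from -0.114 to 0.169, FDFT1 from -0.137 to 0.158, CYP51A1 from -0.143 to 0.00989, INSIG1 from -0.111 to 0.0829, LSS from -0.111 to 0.0125, SREBF2 from -0.0346 to 0.151 and INSIG2 from -0.0798 to 0.177. The median of the 5 genes ran from -0.351 to 0.170 in HFD against ND, from -0.0288 to 0.192 in HFSD against HSD, from -0.0267 to 0.267 with sucrose against none and from -0.0883 to 0.429 for the interaction. Of all genes, 1 was called with dietary cholesterol, 0 with no filter, in the fit of 2 groups or without the trend, and 0 to 5 with a library left out. With 2 retinas per diet and adjustment over 12204 genes, even changes beyond the 95% intervals given for single genes could go uncalled.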
